A study of Mus musculus with 6 samples.

Results

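Myocardin (Myocd), serum response factor (Srf) and 8 transcription factors that work beside or against them in smooth muscle were followed in uteri of mice with a conditional deletion of Tcf21 and of their controls. The genes were picked by symbol because their proteins are known to drive or restrain the smooth muscle programme, and the choice rule uses no measured level, although earlier results of these data were known when it was made. All 10 (Myocd, Srf, Mef2a, Mef2c, Mef2d, Klf4, Klf5, Foxf1, Foxf2 and Gata6) were found among the 26018 genes listed. Bulk RNA sequencing measured transcripts in uterine tissue of female mice that were 6 weeks old, matched for body weight and given no treatment. The conditional knockout animals (cKO, Tcf21d/d, n = 3) were set against controls (Tcf21f/f, n = 3), with 1 library per animal and both groups handled together. The study looked for genes that may act downstream of TCF21, a basic helix-loop-helix factor of mesenchymal cells, in the growing uterus. Neither the Cre driver and its cells, nor the deleted stretch of Tcf21, nor the strain was given in the sources used here.

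SRF binds a short DNA element called the CArG box, and its partners decide which of its targets are switched on. Myocardin, a coactivator made mainly in smooth and cardiac muscle, joins SRF to activate contractile genes, whereas the ELK factors compete for SRF and steer it to fast-responding growth genes. MEF2 proteins are relatives of SRF that work in muscle and many other cells, KLF4 is known to oppose myocardin, KLF5 is tied to growing and dedifferentiated smooth muscle, FOXF1 and FOXF2 mark mesenchyme that lies next to hedgehog-secreting epithelium, and GATA6 belongs to differentiated vascular smooth muscle.

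The libraries held 14584450 to 16579573 reads in cKO uteri and 14585539 to 16245685 in control uteri. Tcf21 itself stood at 26.0, 0 and 0 normalised counts in the cKO libraries, against 341, 152 and 144 in the controls, and a count of 0 reads allows up to 2.93 and 3.31 normalised counts in those libraries. The log2 difference of -6.03 ± 1.25 (SE) had an adjusted p of 0.0765 by limma, 0.162 by edgeR and 0.256 by DESeq2, and it was 0.284 in the authors' deposited table. Normalised counts are reads over a size factor, of which each library had its own, as deposited. Smooth muscle markers took 0.0775% to 0.0868% of cKO reads and 0.596% to 0.949% of control reads, and 7 of these 8 markers passed the test as lower. Epithelial markers, also expected in a uterus, took 0.00231% to 0.00497% of cKO reads. They took 0.0385%, 0.0181% and 0.0030% of reads in controls 1, 2 and 3, so that control 3 lay within the cKO range. Skeletal muscle markers, which a uterus should lack, took 6.12%, 9.04% and 8.53% of reads in cKO libraries and 3.02%, 5.90% and 4.23% in controls, and 11 of 12 had the higher mean in cKO. Some controls stood apart: liver markers took 1.34% of reads in control 1, against at most 0.00748% in cKO and 0.00879% in the other controls, and markers of autonomic and enteric neurons took 0.0448% in control 3, against at most 0.00391% in cKO and 0.00692% in the other controls. Intestinal epithelium markers took 0.0133% in control 2, against at most 0.0043% in cKO and 0.00515% in the other controls. Mitochondrial transcripts took 23.8% of reads in control 1, against 8.43% to 13.7% in cKO and 8.10% and 10.3% in controls 2 and 3. For the factors that these controls sway, values without them are given. The part of the mitochondrial share in those values was not tested. In bulk tissue, fewer cells of a type and less RNA per cell cannot be told apart.

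The data showed almost no Myocd transcript in cKO uteri, lower Foxf1 and Foxf2 than in 2 of the 3 controls, higher Mef2c and Klf5 than in every control, and overlapping values for Srf, Mef2a, Mef2d, Klf4 and Gata6. None of the 9 genes that could be tested passed the main test, limma at an adjusted p under 0.05 over 16314 genes, in which 0.889% of genes were called lower and 0.276% higher. At an unadjusted p under 0.05, 2 were lower (Myocd and Foxf1; 7.6% of all genes) and 2 higher (Mef2c and Klf5; 6.11%). All 3 cKO libraries lay below all 3 controls for 1 tested factor, Myocd, as for 10.5% of genes, and above them for 2, Mef2c and Klf5, as for 9.04%. The median log2 fold change was 0.077 over the 9 tested factors and 0.002 over all genes. Foxf2 had too few reads in too many libraries to be tested. DESeq2 on the recovered reads called 2 of the factors lower, Myocd and Foxf1, and 0 higher, where it called 3.54% of genes lower and 1.72% higher, and edgeR called 0, where it called 0.668% lower and 0.0797% higher.

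**Figure D1:**
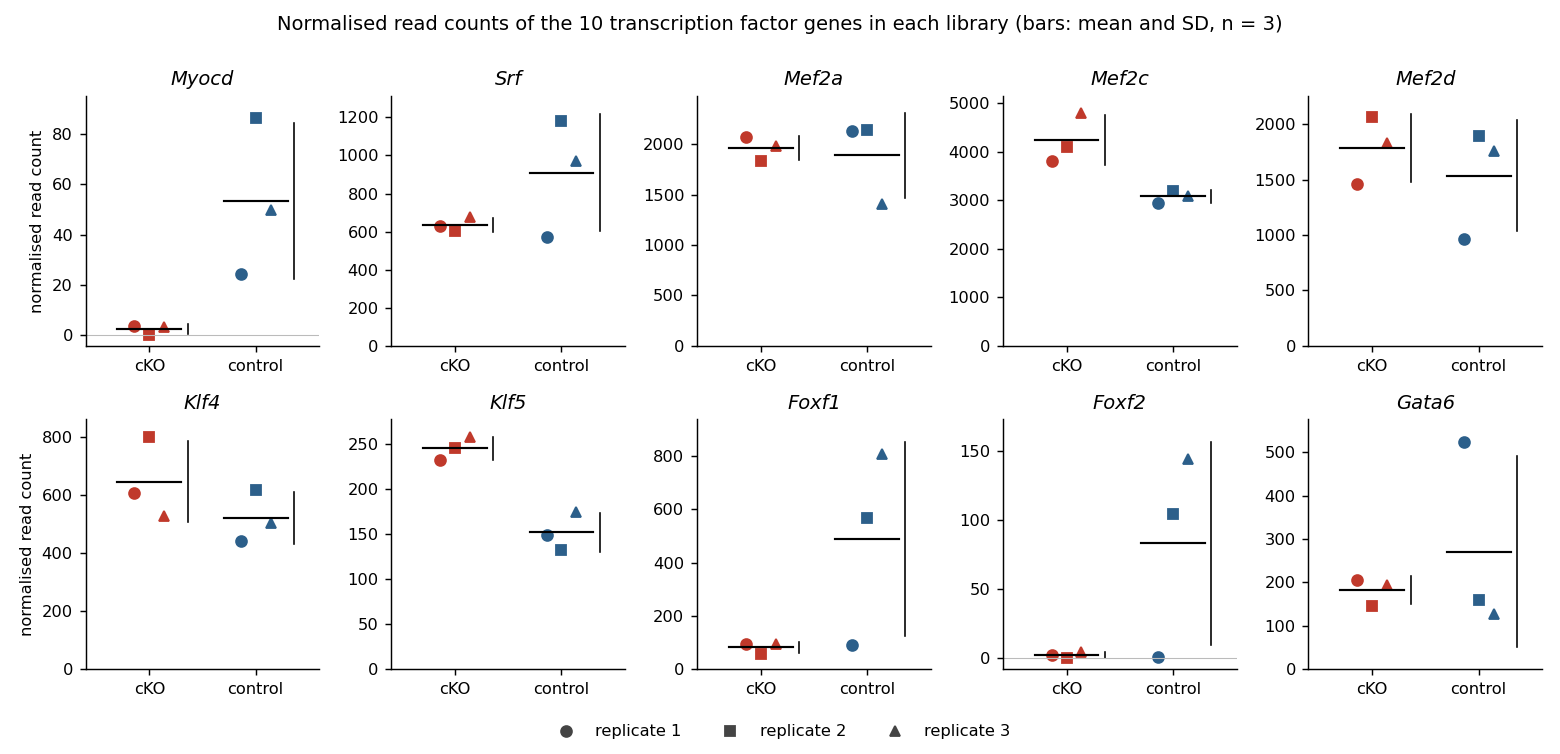
Normalised read counts (vertical axes, each from 0 and with its own scale) of the 10 factors in the 3 cKO and 3 control libraries, 1 point per library, with the mean as a horizontal line and the SD as a vertical bar. Myocd lies between 0 and 3.72 in cKO and between 24.4 and 86.3 in controls, Mef2c and Klf5 lie above every control, and Foxf1 and Foxf2 in control 1 lie with the cKO points.

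Myocd (ENSMUSG00000020542) spans chr11:65176561-65269989 on the minus strand of GRCm38, the build whose coordinates the files carry. The gene gave 3.72, 0 and 3.31 normalised counts in cKO uteri, against 24.4, 86.3 and 49.8 in control uteri. Every cKO library was at or near the limit of detection and every control was above it. In whole reads these were 7 over the 3 cKO libraries (95% Poisson interval 2.81 to 14.4, counting error only) and 172 over the 3 controls. The mean was 2.34 ± 2.04 in cKO and 53.5 ± 31.1 in control uteri (SD, n = 3 each), so that control uteri held 22.8 times the cKO level. On the scale of log2(normalised count + 1) Myocd differed by -4.14 ± 0.89 (SE; 95% confidence interval -6.16 to -2.13), with a limma p of 0.00114 and an adjusted p of 0.0694. The adjusted p was 0.0898 with edgeR and 9.57e-05 with DESeq2, and it was 0.000198 in the authors' deposited table. With a pseudocount of 5 it was 0.0465, where 0.968% of genes were called lower, and with no filter on low reads 0.0282, where 0.769% were. The call was thus met or missed according to the test and its settings, while the difference ran from -5.00 to -2.89 over all alternatives.

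Myocd was also set against other transcripts of the same libraries. For every 1000 reads of Srf there were 5.91, 0 and 4.89 reads of Myocd in cKO uteri, against 42.5, 73.1 and 51.2 in control uteri, and the groups did not overlap. For every 1000 reads of Myh11, the smooth muscle myosin heavy chain and a target of SRF and myocardin, there were 2.59, 0 and 2.67 reads of Myocd in cKO uteri, against 1.07, 2.05 and 1.53 in controls. Here the cKO libraries lay on both sides of the controls, with only 7 reads behind the cKO ratios. Against Mylk, the smooth muscle myosin light chain kinase, the same ratio was 2.38, 0 and 3.82 in cKO uteri and 1.18, 4.72 and 2.36 in controls, again overlapping. Smooth muscle markers moved with Myocd, as given above, and their part in its difference was not tested.

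Srf (ENSMUSG00000015605) lies at chr17:46548329-46556175 on the minus strand. Its promoter is shown because it is the only 1 of the 6 factors with a promoter in the RefSeq table (GRCm38.p6) whose 300 bases, 250 before the start and 50 after, hold the CArG box that SRF itself reads. The stretch below covers chr17:46556183-46556282, minus strand, from 120 to 21 bases before the start, with its 2 CArG boxes in capitals.
Srf: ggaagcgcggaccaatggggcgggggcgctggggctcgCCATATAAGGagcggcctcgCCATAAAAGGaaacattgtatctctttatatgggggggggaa
The boxes begin 82 and 62 bases before the start. A CArG box was found on either strand in 488 of 27025 promoters, or 1.81%. A match describes these letters and is not evidence of a bound site.

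Srf stood at 629, 606 and 677 normalised counts in cKO uteri, against 574, 1180 and 973 in control uteri. The cKO values were close together and lay above control 1 and below controls 2 and 3. The mean was 637 ± 36.6 in cKO and 909 ± 308 in control uteri (SD, n = 3 each), a log2 difference of -0.45 ± 0.25 with an adjusted p of 0.481 by limma. The spread among controls was thus as wide as the difference. Without controls 1 and 3, the libraries with liver and neuronal transcripts, it was -0.89 with an adjusted p of 0.0301, in a fit where the lone control is assumed to vary like the cKO libraries and where 2.85% of genes were called lower and 1.56% higher. Leaving out a single control moved it either way: it was -0.75 without control 1 (adjusted p = 0.0534), -0.23 without control 2 (adjusted p = 0.727) and -0.37 without control 3 (adjusted p = 0.626).

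The MEF2 genes were all well expressed and showed no common direction. Mef2c (ENSMUSG00000005583, chr13:83504034-83667080, plus strand) encodes the member best known for the development of heart and vessels. It gave 3800, 4102 and 4804 normalised counts in cKO uteri, against 2940, 3199 and 3090 in control uteri, so that every cKO library was above every control. The mean was 4235 ± 515 in cKO and 3076 ± 130 in control uteri (SD, n = 3 each). The log2 difference was 0.46 ± 0.16 (95% confidence interval 0.10 to 0.81), with a limma p of 0.0185 and an adjusted p of 0.249. Skeletal muscle expresses Mef2c too, and its markers together took a larger share of reads in each cKO library than in each control. Their part in this difference was not tested.

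Mef2d (ENSMUSG00000001419, chr3:88142372-88172086, plus strand), a broadly expressed member that also serves in skeletal muscle, gave 1457, 2066 and 1826 normalised counts in cKO uteri, against 963, 1893 and 1754 in controls. The groups overlapped, with a log2 difference of 0.26 ± 0.27 and an adjusted p of 0.732 (limma). Mef2a (ENSMUSG00000030557, chr7:67231163-67372858, minus strand), which is broadly expressed as well, gave 2067, 1831 and 1984 in cKO uteri, against 2129, 2142 and 1405 in controls. The log2 difference was 0.077 ± 0.19 with an adjusted p of 0.905, and the groups overlapped. Both directions hang on the controls: Mef2d turned to -0.046 without control 1 and Mef2a to -0.12 without control 3. Transcripts of Mef2a share stretches of at least 100 bases and 95% identity with 49 other genes, and those of Mef2d with 1, so that reads may be divided among them. Of the exon bases 8.87% for Mef2d, 4.15% for Foxf2, 4.06% for Foxf1, 2.06% for Mef2a and 1.43% for Gata6 overlap a gene on the opposite strand, and whether counting used strand was not given in the sources used here.

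The KLF genes lay higher in cKO uteri on average. Klf5 (ENSMUSG00000005148, chr14:99298691-99315036, plus strand) gave 232, 245 and 257 normalised counts in cKO uteri, against 149, 132 and 174 in control uteri. Here the groups did not overlap and their spread was small. The mean was 245 ± 12.6 in cKO and 152 ± 21.3 in control uteri (SD, n = 3 each), or 1.61 times the control level. The log2 difference was 0.69 ± 0.22 (95% confidence interval 0.20 to 1.19), with a limma p of 0.0109 and an adjusted p of 0.195. Klf5 stayed between 0.60 and 0.88 over all alternatives, none of which called it. Klf4 (ENSMUSG00000003032, chr4:55527143-55532466, minus strand), the opponent of myocardin, gave 609, 803 and 530 in cKO uteri, against 441, 617 and 506 in controls. These values overlapped, with a log2 difference of 0.30 ± 0.21 and an adjusted p of 0.584 (limma).

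The forkhead genes divided the controls. Foxf1 (ENSMUSG00000042812, chr8:121084386-121088144, plus strand) gave 94.8, 58.5 and 93.9 normalised counts in cKO uteri, against 91.4, 566 and 807 in control uteri. The cKO libraries and control 1 were alike, and controls 2 and 3 were far above them. The mean was 82.4 ± 20.7 in cKO and 488 ± 364 in control uteri (SD, n = 3 each). The log2 difference was -2.10 ± 0.79 (95% confidence interval -4.00 to -0.20), with a limma p of 0.0353 and an adjusted p of 0.321. Without control 1, the library with liver transcripts, it was -3.05 with an adjusted p of 0.00173, a call that 1.7% of genes then met as lower and 0.564% as higher. Without controls 1 and 3, which leaves control 2 alone, it was -2.80. Without control 3 alone, the library with neuronal transcripts, it was -1.49 with an adjusted p of 0.442, and without control 2 it was -1.75 with an adjusted p of 0.485. Leaving out single cKO libraries gave adjusted p up to 0.686. In the full set the adjusted p was 0.158 with edgeR and 0.000455 with DESeq2, and 0.0455 in the authors' deposited table.

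Foxf2 (ENSMUSG00000038402, chr13:31625816-31631403, plus strand) followed the same pattern at a lower level. It gave 2.79, 0 and 4.42 normalised counts in cKO uteri, against 1.22, 104 and 144 in control uteri, or 7 whole reads over the 3 cKO libraries and 279 over the controls. Control 1 again lay with the cKO libraries. Left in the fit without a filter on low reads, Foxf2 had a log2 difference of -3.56 and an adjusted p of 0.502, and with a filter at a mean of 1 CPM an adjusted p of 0.389. In the authors' deposited table the adjusted p of Foxf2 was 0.0804. TCF21, like other factors of its class, reads E-boxes. Of the 6 factors with a RefSeq promoter, 2, Klf4 and Foxf2, hold the E-box CAGCTG in the 300-base window, as 18.3% of all promoters do. This box reads alike on both strands. The general E-box CANNTG, where N is any base, was held by 3 of the 6 factors. That is a smaller share than the 20265 of 27025 promoters that hold it. Binding of TCF21 was not tested. The Foxf2 stretch is shown as that of the lowest of the 6 in cKO uteri. It covers chr13:31625736-31625815, plus strand, with the E-box in capitals, 38 bases before the start.
Foxf2: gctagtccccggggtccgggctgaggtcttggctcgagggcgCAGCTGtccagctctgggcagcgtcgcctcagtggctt

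The long noncoding RNA gene Fendrr, which lies 1275 bases from Foxf1 on the opposite strand, was looked up after the Foxf1 values were seen. It gave 63.2, 36.1 and 53.0 normalised counts in cKO uteri, against 137, 226 and 610 in control uteri. Unlike Foxf1, its groups did not overlap, and control 1 lay above every cKO library. The log2 difference was -2.40 ± 0.52 with an adjusted p of 0.0753 by limma, 0.0925 by edgeR and 2.33e-05 by DESeq2. By limma it was -2.88 without control 1 (adjusted p = 0.0165), -2.52 without control 2 (adjusted p = 0.120) and -1.81 without control 3 (adjusted p = 0.0682). Without controls 1 and 3 together it was -2.17. Leaving out cKO 1, 2 or 3 gave a limma adjusted p of 0.164, 0.327 and 0.283. The gene Nkx2-3 was also looked up after values were seen. It gave 162, 4.88 and 7.73 normalised counts in cKO uteri, against 10.97, 280 and 334 in control uteri. As for Foxf1, control 1 lay far below controls 2 and 3. Unlike Foxf1, cKO 1 stood far above the other cKO libraries, and the groups overlapped. The log2 difference was -2.36 with an adjusted p of 0.640 by limma, 0.612 by edgeR and 0.712 by DESeq2.

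Among the controls, the neuronal marker list had the same order as the forkhead genes, and the intestinal list did not. Neuronal markers as a list took 0.00391%, 0.00386% and 0.00283% of reads in cKO libraries, against 0.00221%, 0.00692% and 0.0448% in controls 1, 2 and 3. Snap25, a synaptic protein of neurons, was at 0 in all cKO libraries, and at 19.5, 97.96 and 693 normalised counts in controls 1, 2 and 3. Not all members followed Snap25. Stmn2 gave 221, 141 and 129 in cKO libraries, against 178, 223 and 1166 in controls. Uchl1 gave 337, 437 and 266 in cKO libraries, against 152, 347 and 1448 in controls. Intestinal epithelium markers took 0.00261%, 0.0043% and 0.00267% of reads in cKO libraries and 0.00282%, 0.0133% and 0.00515% in controls. Lgals4 alone gave 358, 650 and 394 of the list's 402, 671 and 430 normalised counts in cKO libraries. In controls it gave 422, 954 and 641 of 502, 1940 and 720. Cdx2, which defines intestinal epithelium, was at 53.0 normalised counts in control 2 and at 0 in the other 5 libraries. Vil1, Fabp2 and Krt20 were also highest in control 2 (192, 232 and 240) and at 0 in control 3. The order of the controls thus differs between the lists: Foxf1 was highest in control 3, where Cdx2 was at 0 and the neuronal list at its maximum. The part of these tissues in the forkhead values was not tested.

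Gata6 (ENSMUSG00000005836, chr18:11052508-11085635, plus strand) gave 206, 145 and 193 normalised counts in cKO uteri, against 524, 160 and 127 in control uteri. Control 1 alone stood high, and the other controls lay among or below the cKO libraries. The log2 difference was -0.29 ± 0.50 with an adjusted p of 0.854 (limma), and it turned to 0.33 without control 1. That library is the one in which liver markers took 1.34% of reads, and the part of liver in the Gata6 value was not tested.

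**Figure D2:**
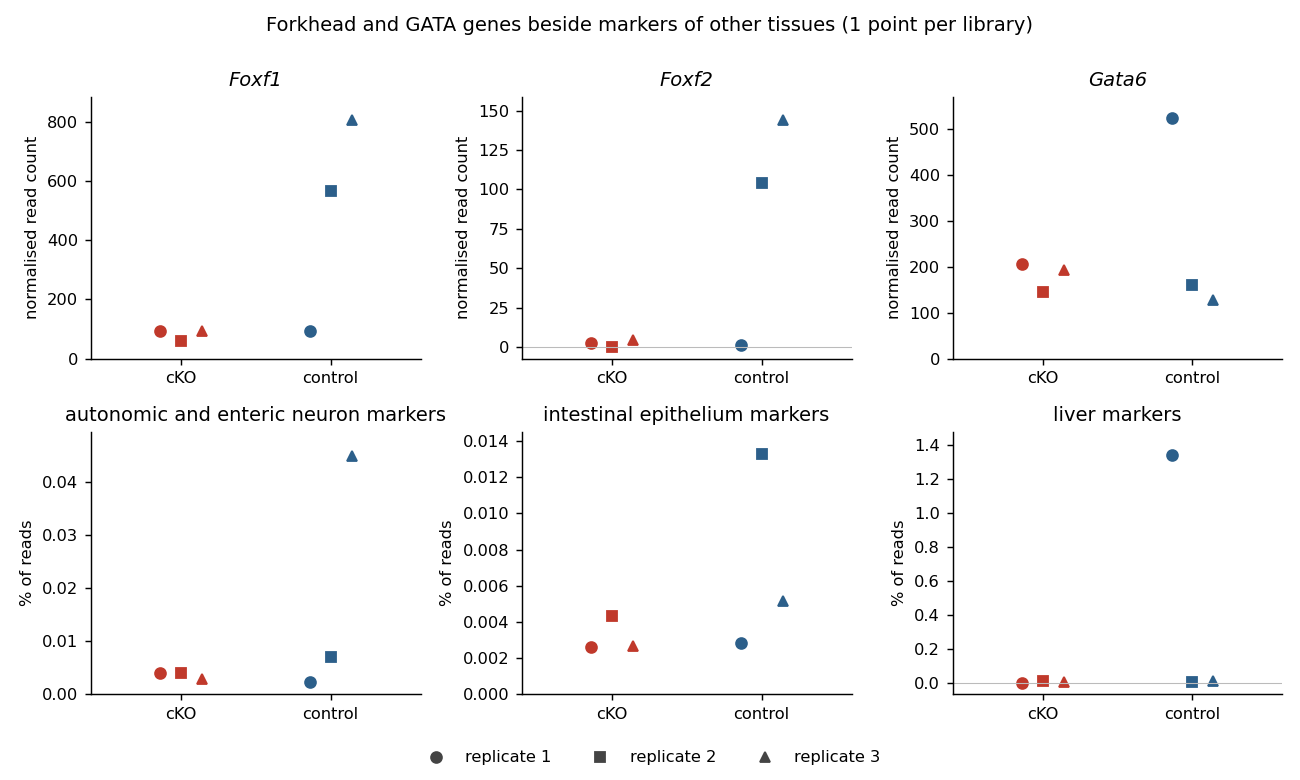
Upper row, normalised read counts of Foxf1, Foxf2 and Gata6, and lower row, summed marker genes of 3 other tissues as a percentage of reads, with 1 point per library, cKO left of control and symbols for replicates. Foxf1 and Foxf2 are high in controls 2 and 3, where neuronal markers are at 0.00692% and 0.0448%, and Gata6 is high in control 1, where liver markers are at 1.34%.

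Per kilobase of gene length, the levels of the factors can be set in order within each group. In cKO uteri the order was Mef2d (298 ± 51.3 normalised counts per kb), Mef2c (270 ± 32.8), Srf (220 ± 12.6), Klf4 (212 ± 46.0), Mef2a (134 ± 8.13), Klf5 (47.1 ± 2.42), Foxf1 (34.1 ± 8.57), Gata6 (32.5 ± 5.75), Foxf2 (1.02 ± 0.946) and Myocd (0.365 ± 0.318; SD, n = 3). Neighbours overlapped for Mef2d and Mef2c, Srf and Klf4, Foxf1 and Gata6, and Foxf2 and Myocd. In control uteri it was Srf (314 ± 106), Mef2d (257 ± 83.8), Foxf1 (202 ± 151), Mef2c (196 ± 8.27), Klf4 (171 ± 29.2), Mef2a (129 ± 28.7), Gata6 (48.4 ± 39.4), Foxf2 (35.2 ± 31.2), Klf5 (29.2 ± 4.09) and Myocd (8.33 ± 4.84), and only 2 neighbouring pairs were separate, Mef2a from Gata6 and Klf5 from Myocd. Myocd was thus the least abundant of the 10 per length in both groups.

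**Figure D3:**
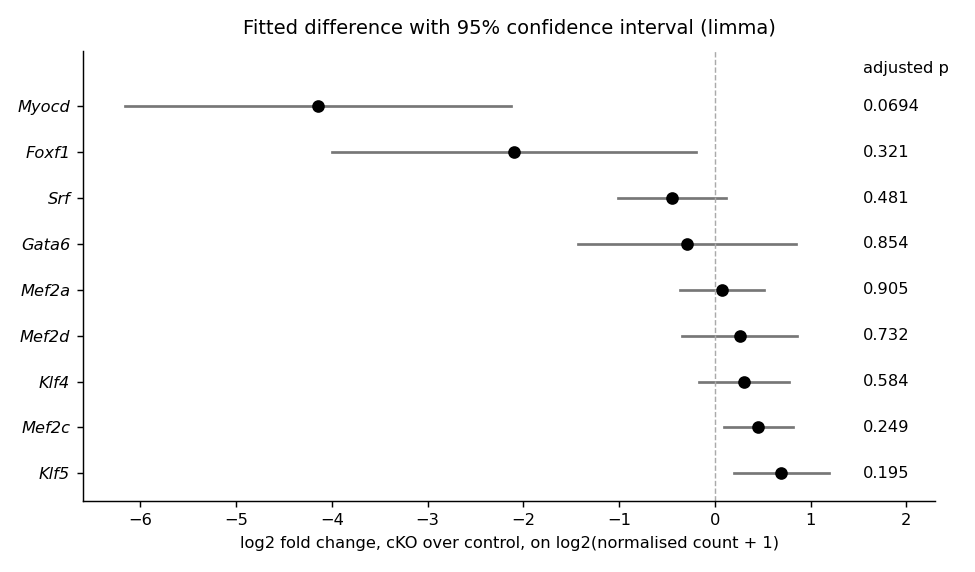
Log2 fold change of cKO over control (horizontal axis, on log2(normalised count + 1)) of the 9 tested factors, with 95% confidence intervals and adjusted p-values from limma. The interval lies below 0 for Myocd and Foxf1 and above 0 for Mef2c and Klf5, and every adjusted p is above 0.05.

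The targets that SRF and myocardin are known to drive in smooth muscle behaved as a group in which most members fell. Of the 15 listed, all tested, 11 were lower in cKO uteri and 0 higher by limma, which called 0.889% of all genes lower and 0.276% higher, with a median log2 fold change of -3.01, against 0.002 over all genes. edgeR called 11 lower and 0 higher, and DESeq2 12 lower and 1 higher. This list holds all 8 smooth muscle markers counted above and is not separate evidence. Myh11 gave 1435, 1524 and 1240 normalised counts in cKO uteri, against 22862, 41998 and 32477 in controls, and fell by 4.50 ± 0.23 on the log2 scale (adjusted p = 0.000107). Mylk averaged 1173 ± 353 in cKO and 20029 ± 1519 in control uteri and fell by 4.13 ± 0.22 (adjusted p = 0.000107). Myl9, the regulatory light chain of smooth muscle myosin, averaged 2693 ± 788 in cKO and 28705 ± 2230 in control uteri and fell by 3.45 ± 0.22 (adjusted p = 0.000342). Acta2, smooth muscle actin, averaged 4988 ± 495 in cKO and 39614 ± 10832 in control uteri and fell by 2.96 ± 0.23 (adjusted p = 0.0011).

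The other called targets ranged from -1.54 to -6.86 on the log2 scale. Actg2, Cnn1 and Cald1 each lost the call under 3 of 16 alternatives, and the other 8 kept it under all 16. The 4 without a call by limma were Des (0.059 ± 0.25, adjusted p = 0.948), Tpm2 (0.52 ± 0.22, adjusted p = 0.34), Vcl (-1.43 ± 0.60, adjusted p = 0.356) and Synpo2 (-0.63 ± 0.31, adjusted p = 0.423). DESeq2 called Vcl lower (adjusted p = 0.016) and Tpm2 higher (adjusted p = 0.0311). Des, which encodes desmin, and Tpm2, a tropomyosin, are also abundant in skeletal muscle, whose markers were higher in cKO. Vcl, which encodes vinculin of cell adhesions, lay at 115, 131 and 106 normalised counts in cKO uteri and at 167, 910 and 206 in controls, so that the groups did not overlap and control 2 stood far above the other controls.

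CArG boxes were also looked for close to the start of the targets. Only the 300-base window was searched, so a target without a match may still hold a box elsewhere. Of the 12 with a promoter in the RefSeq table, 2 hold a box, or 16.7%, against 1.81% of all promoters. These are Myl9, lower by all 3 tests, and Vcl, called lower by DESeq2 alone. The share was not particular to this list. A box was held by 1 of 6 immediate-early targets (16.7%), 1 of 8 striated muscle targets (12.5%) and 1 of 11 SRF cofactors (9.09%). It was held by 0 of 9 restrainers, 0 of 15 family relatives and 0 of 8 hedgehog genes. The Myl9 and Vcl stretches are printed so that they can be read beside that of Srf, with the box in capitals. The Myl9 stretch is chr2:156775264-156775343, plus strand, where the box begins 161 bases before the start. The Vcl stretch is chr14:20929148-20929207, plus strand, where it begins 227 bases before the start.
Myl9: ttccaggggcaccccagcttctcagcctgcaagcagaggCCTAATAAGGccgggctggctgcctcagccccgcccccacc
Vcl: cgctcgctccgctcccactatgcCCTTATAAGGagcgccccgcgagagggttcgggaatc

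**Figure D4:**
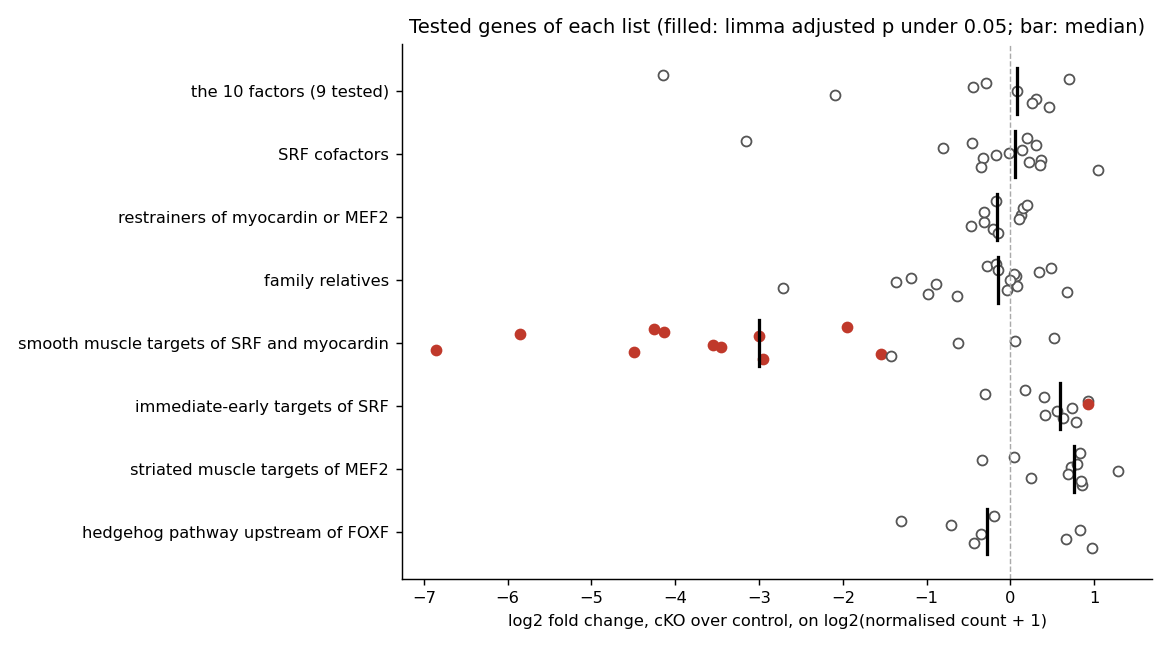
Log2 fold change of cKO over control (horizontal axis) for each tested gene of the 8 lists, 1 circle per gene, filled where the limma adjusted p is under 0.05, with the median of each list as a bar. The smooth muscle targets reach from -6.86 to 0.52 with 11 filled circles, the only other filled circle is Junb at 0.93, and the medians of the immediate-early and striated muscle lists are at 0.59 and 0.76.

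The immediate-early genes, which SRF drives together with ELK factors, lay on the other side of 0. Of 10 tested, 1 was called higher and 0 lower by limma, where 0.276% of all genes were called higher and 0.889% lower. DESeq2 called 2 higher, where 1.72% of all genes were, and edgeR called 0. In the list 9 had the higher mean in cKO uteri, and the median log2 fold change was 0.59. Junb, an AP-1 subunit, gave 2838, 2835 and 2542 normalised counts in cKO uteri, against 1338, 1327 and 1666 in controls, and rose by 0.93 ± 0.16 on the log2 scale (limma adjusted p = 0.0318). The call for Junb was lost in 6 of 16 alternatives, among them edgeR (adjusted p = 0.0577) and leaving out any cKO library or control 2, with adjusted p up to 0.179. Another 4 of the list had an unadjusted p under 0.05 as higher, where 6.11% of all genes did. Markers of other cells moved with the list: skeletal muscle markers took the shares given above, and macrophage markers took 0.215% to 0.267% of reads in cKO and 0.102% to 0.244% in control libraries, with 7 of 8 higher on average in cKO. Their part was not tested.

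The striated muscle targets of MEF2 had no call among 10 tested, with a median of 0.76 and 9 higher means in cKO uteri. The members with the smallest p were Xirp1, an actin-binding repeat protein of striated muscle (1632 ± 454 in cKO and 671 ± 186 in control uteri; 1.29 ± 0.26 on the log2 scale, adjusted p = 0.0613), and Smyd1, a methyltransferase of striated muscle (4068 ± 330 in cKO and 2308 ± 373 in control uteri; 0.83 ± 0.17, adjusted p = 0.0615). In all, 6 had an unadjusted p under 0.05 as higher and 0 as lower, where 6.11% and 7.6% of all genes had. DESeq2 called 4 higher, where 1.72% of all genes were, and edgeR called 0. They moved with the skeletal muscle markers, at 6.12% to 9.04% of cKO reads and 3.02% to 5.90% of control reads, and the part of that tissue was not tested.

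The SRF cofactors had 0 calls by limma among 14 tested, with a median of 0.058. At an unadjusted p under 0.05, 2 were lower and 1 higher (7.6% and 6.11% of all genes), edgeR called 1 lower (0.668%), and DESeq2 called 1 lower and 1 higher (3.54% and 1.72%). Csrp1, a LIM protein that bridges SRF and GATA factors, gave 1043, 941 and 1040 normalised counts in cKO uteri, against 3602, 16767 and 12079 in controls. Every control was above every cKO library, and the log2 difference of -3.16 ± 0.54 had an adjusted p of 0.0594 by limma and 0.0337 by edgeR. Abra, an actin-binding activator of SRF found in striated muscle, gave 1085, 764 and 1424 in cKO uteri, against 668, 408 and 489 in controls (1.05 ± 0.26, adjusted p = 0.113). The myocardin relatives in the list, Mrtfa and Mrtfb, stood at 0.36 ± 0.18 (adjusted p = 0.413) and 0.20 ± 0.15 (adjusted p = 0.624) and thus did not share the low level of Myocd; these genes, listed as Mkl1 and Mkl2, were singled out after their values were seen.

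The remaining lists held no call by limma or edgeR either. Among 10 tested restrainers of myocardin or MEF2, 0 had an unadjusted p under 0.05, with 0 calls by DESeq2. The differences ran from -0.47 to 0.20 with a median of -0.16, and those with the smallest p were Foxo4, a forkhead factor that binds myocardin (0.20 ± 0.17, adjusted p = 0.669), and Hdac9, a class II deacetylase that binds MEF2 (-0.31 ± 0.29, adjusted p = 0.697). Among 17 tested family relatives 4 were lower and 1 higher at an unadjusted p under 0.05 (7.6% and 6.11% of all genes), and DESeq2 called 1 lower and 1 higher (3.54% and 1.72%). The median was -0.15, and Klf10 (0.67 ± 0.15, adjusted p = 0.0829) and Gata5 (-2.72 ± 0.89, adjusted p = 0.216) had the smallest p. Klf10 averaged 1209 ± 113 in cKO and 757 ± 55.9 in control uteri, and Gata5 5.20 ± 5.69 in cKO and 33.6 ± 20.5 in control uteri, without overlap for either. Among 8 tested genes of the hedgehog pathway, which acts upstream of the FOXF genes in gut and lung, the median was -0.28, with 2 lower and 1 higher at an unadjusted p under 0.05 (7.6% and 6.11% of all genes) and 1 higher by DESeq2 (1.72%). Gli1, a transcriptional readout of hedgehog signals, averaged 504 ± 56.2 in cKO and 259 ± 50.04 in control uteri (0.97 ± 0.20, adjusted p = 0.0632), and Gli3, mostly a repressor, 99.2 ± 58.0 in cKO and 223 ± 37.6 in control uteri (-1.30 ± 0.40, adjusted p = 0.183). DESeq2 called Gli1 higher (adjusted p = 0.00385), as it called Foxf1 lower, and limma and edgeR called neither.

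The genes whose profile over the 6 libraries was most like that of Myocd were found by the root mean square distance between log2 profiles, each centred on its own mean, among 14233 protein-coding genes with a median distance of 2.28. The closest were Cdh6 (distance 0.481), a cadherin, Ryr3 (0.492), a calcium release channel, Tmem200a (0.551), a membrane protein, Hif3a (0.657), a hypoxia-inducible factor, and Hand2 (0.659), a basic helix-loop-helix factor of uterine stroma and other mesenchyme. Ryr3 gave 37.2, 10.7 and 28.7 normalised counts in cKO uteri, against 283, 367 and 365 in controls, and was the only 1 of the 5 that was called (-3.83 ± 0.45, limma adjusted p = 0.00552). Hand2 gave 72.5, 14.6 and 48.6 in cKO uteri, against 302, 437 and 1108 in controls (adjusted p = 0.0539), and Tmem200a had an adjusted p of 0.0502. All 5 were lowest in cKO 2, as was Myocd. Genes with a large gap between the groups resemble each other in this measure, so the likeness is a description of 6 libraries.

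**Figure D5:**
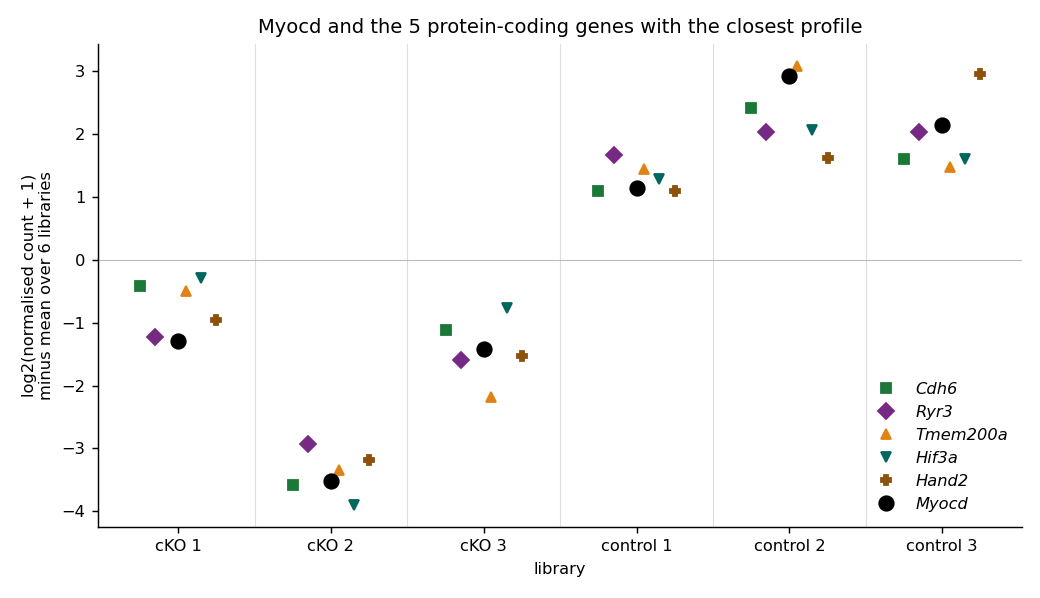
Log2(normalised count + 1) minus the gene's mean over the 6 libraries (vertical axis) in each library (horizontal axis) for Myocd, as large black circles, and the 5 protein-coding genes closest to it, at distances of 0.481 to 0.659. All 6 genes lie below 0 in the 3 cKO libraries, lowest in cKO 2, and above 0 in the 3 controls.

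Carmn, a long noncoding RNA of smooth and cardiac muscle whose product is known to bind myocardin, was looked up after the Myocd values were seen. It gave 16.7, 3.90 and 5.52 normalised counts in cKO uteri, against 43.9, 167 and 79.2 in control uteri. The groups did not overlap, and cKO 2 was again the lowest library and control 2 the highest. The log2 difference of -3.35 ± 0.69 had an adjusted p of 0.0605 by limma, 0.0932 by edgeR and 0.000101 by DESeq2.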

How the data were processed

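Total RNA was extracted with Trizol, per the labels' protocols, and sequenced as 1 library per animal (3 cKO, 3 control). The tools were HISAT2, SAMtools and featureCounts, per the submitters' processing notes, which give no version. The notes name GRCm39, but of 26006 identifiers found in GENCODE vM21, on GRCm38, 25257 had identical coordinates, so positions are read as GRCm38. The signal the authors deposited is gene counts divided by 1 size factor per library. In each library 100% of values were whole multiples of 1 step within 0.01 reads, which gave back whole reads. Their fold changes on the log2 scale and their adjusted p-values, in the authors' deposited table, were used only where named, and the tool behind them was not given in the sources used here.

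The main test was limma 3.58.1 (R 4.3.3) on log2(normalised count + 1), with trend and robust empirical Bayes, for genes that passed edgeR's filterByExpr on the recovered reads. P-values were adjusted by Benjamini-Hochberg over 16314 genes, with calls under 0.05. The added 1 shrinks differences of genes with few reads. Alternatives were edgeR 4.0.16, DESeq2 1.42.0, voom, TMM scaling, pseudocounts of 0.5 and 5, other filters and thresholds, a replicate block and leaving out libraries. The test was tried on simulated reads. A count of 0 was given a limit of 3 reads, for counting error only, since PCR copies are not independent molecules. Shared transcript sequence was sought with blastn 2.17.0, and promoters came from RefSeq (GRCm38.p6).

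The factors and the lists were chosen with earlier results of these data known, so no list is independent evidence. Genes named are the 10 factors, Tcf21, of each list the called genes up to the 4 with the smallest p or else the 2 with the smallest p, and the 5 closest to Myocd. Others are said to have been chosen later.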

Additional observations from a re-analysis of the deposited data

How the results depend on the processing

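Each group held 3 animals, and Myocd and Foxf2 rest on 7 reads each over the cKO libraries. Of the factors, 0 were called higher in every alternative run. The number called lower, 0 in the test reported, was 2 with DESeq2, 1 with a pseudocount of 5 (Myocd, adjusted p = 0.0465), 1 with no filter on low reads (Myocd, adjusted p = 0.0282), 1 at an adjusted p under 0.1 (Myocd), 0 to 1 when single libraries were left out (Foxf1 without control 1), and 2 without controls 1 and 3 (Srf and Foxf1). Direction was kept in all 16 alternatives by Myocd, Srf, Mef2c, Klf4, Klf5 and Foxf1. It turned for Mef2a (-0.12 to 0.18 with single libraries left out and -0.13 without controls 1 and 3), Mef2d (-0.046 to 0.44 and -0.10) and Gata6 (-0.69 to 0.33 and 0.17). The cause was not tested.

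Over all genes, 145 lower and 45 higher, the number lower was 578 with DESeq2, 82 with voom, 46 to 277 with single libraries left out (fewest without cKO 2 or cKO 3, most without control 1), 465 without controls 1 and 3, 253 at an adjusted p under 0.1 and 54 under 0.01. The number higher was 13 with edgeR, 280 with DESeq2, 19 with voom, 82 with no filter, 1 to 92 with single libraries left out (1 without cKO 3, 2 without cKO 1, 3 without cKO 2, 92 without control 1, 75 without control 2), 254 without controls 1 and 3, 121 at an adjusted p under 0.1 and 3 under 0.01. Over the pathway lists, 11 lower and 1 higher, the number higher was 0 with edgeR, 10 with DESeq2, 4 with no filter, 0 to 3 with single libraries left out (0 without any cKO library, 3 without control 1), 7 without controls 1 and 3, 7 at an adjusted p under 0.1 and 0 under 0.01.

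Same-numbered libraries of the groups did not deviate together (Pearson's r over genes 0.00843, -0.176 and 0.0438 for numbers 1, 2 and 3). With 3 libraries per group, these values cannot tell whether same-numbered animals shared more than a number. With the replicate number as a block, 149 genes were lower and 34 higher, with 0 of the factors and 9 lower and 1 higher of the pathway lists.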
